A study of Mus musculus with 4 samples.

Results

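*Angptl4*, 2 of its relatives and 6 genes of fatty acid metabolism and its control were followed through RNA-seq of *Phf2* KO mouse embryonic fibroblasts (MEFs). Phf2 is a PHD finger and Jumonji domain protein that binds methylated histone H3. The 9 genes were taken by symbol from the table of raw counts, which lists 24391 gene symbols. They are *Angptl4*, *Angptl1* and *Angptl2*, which encode secreted angiopoietin-like proteins, *Ppard* and *Ppara*, which encode nuclear receptors, and *Cpt1a*, *Pdk4*, *Plin2* and *Acadl*, which act in fatty acid use or storage. All 9 were among the 13668 genes with enough counts to be tested. They were chosen by their place in these pathways and by their *Phf2* KO to WT differences in these libraries, so those differences are given as a description, without a test.

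The series holds 2 WT and 2 *Phf2* KO libraries of primary MEFs, prepared from E13.5 embryos and arrested in quiescence. All 4 carry the genotype Phf2 flox/flox, ERCre/+ by the labels, that is floxed *Phf2* and CreERT2 expressed from the Rosa26 locus, and tamoxifen is named as the treatment of the *Phf2* KO libraries alone. The same protocol text, with 0.5 µM 4-hydroxytamoxifen (4-OHT) for 7 days and serum treated with charcoal, is given for each library. The medium and vehicle of the WT cells are not stated, and loss of Phf2, Cre activity and exposure to 4-OHT cannot be told apart. The labels number the libraries of each group 1 and 2 and do not say whether libraries of the same number share an embryo or culture.

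The libraries held between 21094743 and 26094268 counts. Values are given for replicates 1 and 2, in this order, throughout. *Phf2* itself had WT counts of 3244 and 3680 against 1454 and 2158 in *Phf2* KO, which is 57.9% of the WT mean after normalization. Counts per gene do not separate the floxed exons from the rest of the transcript. Replicate 1 was *Xist*-positive in both groups and replicate 2 expressed the Y-linked gene *Ddx3y* in both: WT counts of *Xist* were 10042 and 3, those of *Phf2* KO 8336 and 12, and *Ddx3y* had 6 and 1271 against 10 and 1295. Replicates 1 and 2 were thus female and male cells, from different embryos, and the spread within a group includes this difference. The summed level of 17 macrophage markers also followed the replicate number, with 4271 and 940.3 CPM in WT against 4847 and 1467 CPM in *Phf2* KO (CPM, counts scaled to a library of 1000000 after normalization). Fibroblast markers summed to between 61961 and 75178 CPM, whereas adipocyte markers summed to between 8.67 and 16.1 CPM and hepatocyte markers to between 0.832 and 1.50 CPM.

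Peroxisome proliferator-activated receptors (PPARs) are transcription factors that fatty acids activate. They bind DNA as dimers with retinoid X receptors, at direct repeats of the letters AGGTCA spaced by a base, and switch on genes that take up, store and burn fat. *Angptl4*, *Cpt1a*, *Pdk4*, *Plin2* and *Acadl* are known PPAR targets in several tissues. *Angptl4* encodes a secreted inhibitor of lipoprotein lipase, the enzyme that releases fatty acids from circulating lipoproteins, and is induced by fasting, hypoxia and glucocorticoids as well as by fatty acids. PPARs are known to act on *Angptl4* through an element inside an intron.

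Sequence was therefore read from inside the genes and from their promoters, because this is where a PPAR element would be looked for. The motif searched was AGGTCA, any base N, and AGGTCA again (13 letters), on both strands, with up to 2 mismatches outside the N. In *Angptl4* a match lay 2266 bases from the annotated start, in the intron after 3 exonic blocks, at chr17:33916234-33916262 (mm9). In *Acadl* the same letters occurred 4502 bases from the start, in the intron after 1 exonic block, at chr1:66905329-66905357 (mm9). In *Angptl1* another match lay 3331 bases from the start, in the intron after 1 exonic block, at chr1:158772016-158772044 (mm9). These 3 are shown 5′ to 3′ on the strand of their gene, with the letters of the match in capitals and 8 bases on each side.
*Angptl4* intron: tcccccagTGACCTTTCTCCTactttccc
*Acadl* intron: tgcccagtTGACCTTTCTCCTcagctgac
*Angptl1* intron: taaaacacAGGTCCCAGGTCTagtatctg

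The matches in *Angptl4* and *Acadl* were identical over the 13 letters and ran on the opposite strand to the gene in both. Matches this loose are common. Of 12132 tested protein-coding genes, 52.2% held one within bases 51 to 5000 of the transcribed span, and 5 of the 9 genes did: *Angptl4*, *Angptl1*, *Angptl2*, *Ppard* and *Acadl*. With up to 1 mismatch the share was 10.7%, and none of the 9 genes held such a match. Both *Angptl4* and *Angptl1*, which were lower in *Phf2* KO, and *Acadl*, whose levels overlapped between the groups, were among the genes with a match.

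Promoter sequences from RefSeq (GRCm38.p6) matched 8 of the 9 genes by symbol, all but *Angptl4*. Within 250 bases before to 50 after the start, *Plin2* alone held a match with up to 2 mismatches, beginning at position -225 from the start. Among 32851 promoters of this length, 3.86% held one. The 250 bases before the start are shown for *Plin2*, with the match in capitals, and for *Angptl1*, the gene with the lowest level in *Phf2* KO relative to WT among the 9. In this build the *Plin2* stretch is at chr4:86670060-86670309 on the minus strand and that of *Angptl1* at chr1:156838773-156839022 on the plus strand.
*Plin2* promoter: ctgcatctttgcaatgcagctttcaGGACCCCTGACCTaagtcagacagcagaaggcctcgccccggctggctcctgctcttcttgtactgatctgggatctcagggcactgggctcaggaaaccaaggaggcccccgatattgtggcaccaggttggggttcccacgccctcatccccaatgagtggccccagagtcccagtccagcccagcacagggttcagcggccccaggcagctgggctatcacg
*Angptl1* promoter: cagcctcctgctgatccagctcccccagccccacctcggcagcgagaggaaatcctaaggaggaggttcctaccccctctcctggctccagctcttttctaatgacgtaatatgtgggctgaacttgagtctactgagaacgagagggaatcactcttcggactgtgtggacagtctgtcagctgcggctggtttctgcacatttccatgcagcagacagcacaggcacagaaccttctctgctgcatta

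*Angptl4* and *Angptl1* were lower in *Phf2* KO MEFs, while the 7 other genes had *Phf2* KO means between 96.0% and 130.2% of the WT mean. *Angptl4*, at chr17:33910695-33918520 on the minus strand of mm9, had WT counts of 442 and 500, against 159 and 200 in *Phf2* KO. Normalized, these counts were 18.3 and 19.3 CPM in WT against 7.67 and 8.32 CPM in *Phf2* KO. The means were 18.8 ± 0.658 CPM (SD, n = 2) and 8.00 ± 0.457 CPM (SD, n = 2), so *Phf2* KO stood at 42.5% of WT. The 2 groups were far apart relative to the gap between replicates. The log2 fold change in the edgeR fit was -1.23 (standard error, SE, 0.13), the 66th lowest of the 13668 genes tested.

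*Angptl1*, whose product is a secreted relative of Angptl4 that was described as acting on blood vessel growth, lies at chr1:158768693-158791209 within an intron of *Ralgps2*, on the opposite strand and without shared exon bases. Its WT counts were 369 and 291, those of *Phf2* KO 101 and 123, or 15.3 and 11.2 CPM against 4.87 and 5.12 CPM. *Phf2* KO was at 37.7% of WT, with means of 13.3 ± 2.90 CPM (SD, n = 2) in WT and 5.00 ± 0.171 CPM (SD, n = 2) in *Phf2* KO. The WT libraries were further apart than for *Angptl4*, yet the lower one stayed well above either *Phf2* KO library. The log2 fold change was -1.41 (SE 0.21), the 45th lowest. The host gene *Ralgps2* overlapped between the groups, at 296 and 376 WT counts against 282 and 342 for *Phf2* KO (104.0% of WT).

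*Angptl2*, the third angiopoietin-like gene, encodes a secreted protein known from inflamed fat tissue and lies at chr2:33071589-33103237, within *Ralgps1* on the opposite strand. It was abundant, with 8537 and 10270 WT counts against 8106 and 9258 for *Phf2* KO, or 354.2 and 395.8 CPM against 391.2 and 385.1 CPM. Here both *Phf2* KO values lay between the WT values, while the host gene *Ralgps1* had 248 and 269 WT counts against 180 and 190 for *Phf2* KO (80.3% of WT). Its log2 fold change was 0.05 (SE 0.10).

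**Figure D1:**
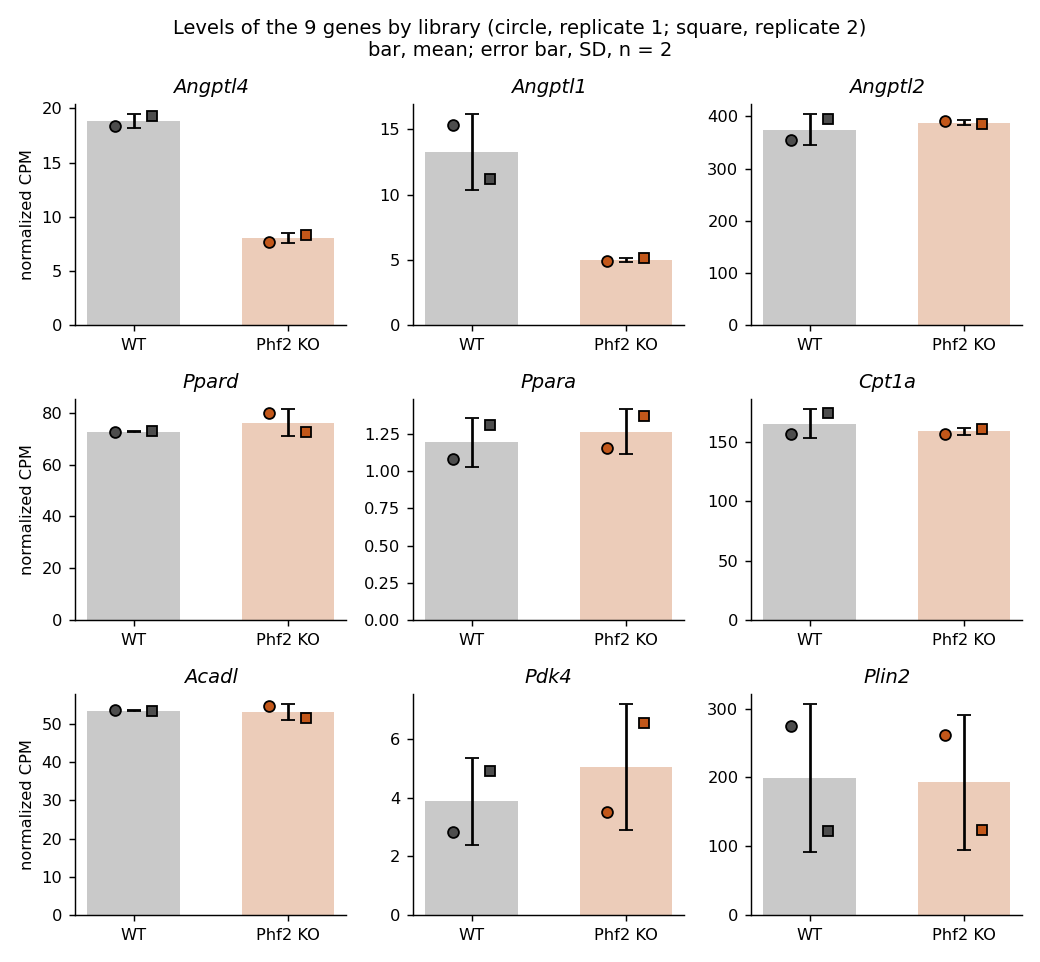
Normalized CPM (y axis from 0) of each of the 9 genes in WT and *Phf2* KO MEFs. Circles are replicate 1, squares replicate 2, bars the mean and error bars the SD (n = 2). *Angptl4* and *Angptl1* have both *Phf2* KO points below both WT points, whereas *Plin2* and *Pdk4* separate by replicate number within each group.

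The levels of both receptor genes overlapped between the groups. *Ppard*, at chr17:28369699-28438414, encodes the PPAR that most tissues express and had 1751 and 1889 WT counts against 1655 and 1741 for *Phf2* KO. Its levels were 72.6 and 72.8 CPM in WT against 79.9 and 72.4 CPM in *Phf2* KO, a log2 fold change of 0.07 (SE 0.087). *Ppara*, at chr15:85565413-85633249, encodes the PPAR of liver, heart and muscle and was weakly expressed, with 26 and 34 WT counts against 24 and 33 for *Phf2* KO. At this depth its log2 fold change of 0.08 had an SE of 0.30.

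Among the enzymes and the droplet protein, *Acadl* and *Cpt1a* also overlapped between the groups. *Acadl*, at chr1:66877413-66909851, encodes the long-chain acyl-CoA dehydrogenase of mitochondrial beta-oxidation. It had 1291 and 1386 WT counts against 1132 and 1242 for *Phf2* KO, with means of 53.5 ± 0.105 CPM (SD, n = 2) and 53.1 ± 2.10 CPM (SD, n = 2). *Cpt1a*, at chr19:3323301-3385732, encodes the carnitine palmitoyltransferase that admits long-chain fatty acids to mitochondria. Its 3785 and 4524 WT counts against 3255 and 3874 for *Phf2* KO gave 157.0 and 174.3 CPM against 157.1 and 161.2 CPM. The log2 fold changes were -0.01 (SE 0.085) for *Acadl* and -0.06 (SE 0.09) for *Cpt1a*.

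*Pdk4* and *Plin2* varied more between replicate numbers than between groups. *Pdk4*, at chr6:5433351-5446309, encodes the kinase that shuts off pyruvate dehydrogenase when fat is burned in place of glucose. It had 68 and 128 WT counts against 73 and 158 for *Phf2* KO, or 2.82 and 4.93 CPM against 3.52 and 6.57 CPM. Replicate 2 was the higher library in both groups. *Plin2*, at chr4:86294290-86315964, encodes a coat protein of lipid droplets. Its 6633 and 3178 WT counts against 5432 and 2963 for *Phf2* KO gave 275.2 and 122.5 CPM against 262.2 and 123.3 CPM, with replicate 1 the higher library in both groups. The log2 fold changes over all 4 libraries, 0.38 (SE 0.43) for *Pdk4* and -0.05 (SE 0.53) for *Plin2*, had standard errors larger than the difference itself. They came from the fit with genotype alone, where the difference between numbers counts as error. Leaving out 1 library moved the fold changes and could turn their sign, but also left the replicate numbers unequal between the groups. The moves therefore include the difference between numbers, and no instability of the group difference is read from them. The *Pdk4* value was -0.14 without *Phf2* KO replicate 2, 0.05 without WT replicate 1, 0.76 without *Phf2* KO replicate 1 and 0.84 without WT replicate 2. That of *Plin2* was -0.69 without *Phf2* KO replicate 1, -0.51 without WT replicate 2, 0.39 without *Phf2* KO replicate 2 and 0.67 without WT replicate 1.

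The groups were separate, with both *Phf2* KO libraries below both WT libraries, for 2 of the 9 genes. This held for 18.0% of all genes tested. None of the 9 genes had both *Phf2* KO libraries above WT, which held for 15.5% of all genes. Because the genes were picked with this contrast known, nothing is read from these counts. With 2 libraries in each group, an exact two-sided permutation test of a gene could not give a p-value below 0.333. The median log2 fold change was -0.01 over the 9 genes and 0.01 over all genes tested.

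Within each replicate number, *Phf2* KO was then set against the WT library of the same number. *Angptl4* gave nearly the same ratio both times, with log2 ratios of -1.26 (95% counting interval -1.53 to -0.99) for number 1 and -1.21 (-1.46 to -0.97) for number 2. *Angptl1* gave -1.65 (-1.98 to -1.33) and -1.13 (-1.45 to -0.82). These intervals cover counting error only, and reads amplified by PCR without molecular identifiers are not independent molecules. *Pdk4* gave 0.32 (-0.18 to 0.82) and 0.41 (0.07 to 0.76), and *Plin2*, in spite of its split, gave -0.07 (-0.12 to -0.02) and 0.01 (-0.06 to 0.08). *Cpt1a* gave 0.00 (-0.07 to 0.07) and -0.11 (-0.18 to -0.05). For *Acadl* the ratios were 0.03 and -0.05, for *Angptl2* 0.14 and -0.04, for *Ppard* 0.14 and -0.01, and for *Ppara* 0.10 and 0.07. Thus 2 genes were lower by over 0.3 log2 units in both numbers, as were 5.13% of all genes tested, and *Pdk4* was higher by over 0.3 in both, as were 4.17%. By sign alone, 2 genes were lower in both numbers (30.1% of all genes), 2 were higher in both (32.6% of all genes) and 5 had ratios of opposite sign.

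**Figure D2:**
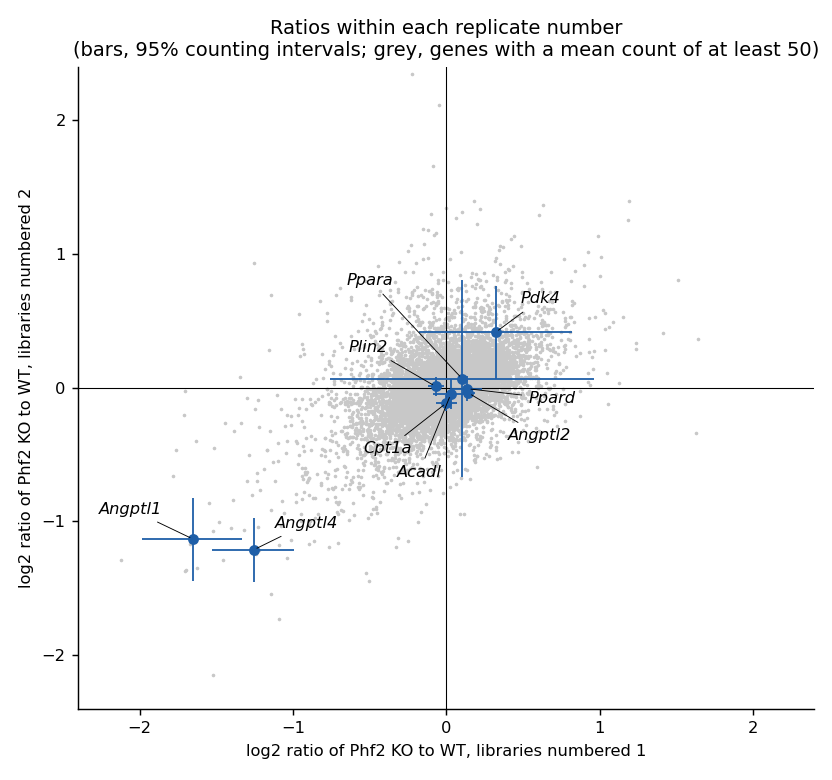
Log2 ratio of *Phf2* KO to WT for the libraries numbered 1 (x axis) and 2 (y axis). Blue points with 95% counting intervals are the 9 genes, and grey points are the 11550 tested genes whose mean count was at least 50 (6 more lie beyond the axes). *Angptl4* and *Angptl1* sit in the lower left, at -1.26 and -1.21 and at -1.65 and -1.13, and of the other 7 genes *Pdk4* lies farthest from the origin, at 0.32 and 0.41.

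The difference between replicate numbers was tested, since the genes were not chosen by it. Earlier results of these data were known when the genes and the tests were chosen. With genotype as a term in edgeR, *Plin2* was higher in replicate 1 by 1.13 log2 units (SE 0.085, adjusted p = 9.47e-38), with 1.17 in WT and 1.09 in *Phf2* KO. *Pdk4* differed by -0.85 log2 units, lower in replicate 1 (SE 0.20, adjusted p = 0.000136), with -0.81 in WT and -0.90 in *Phf2* KO. For each gene the difference had the same sign in both groups. The fit has 1 residual degree of freedom, and in DESeq2 the *Pdk4* difference of -0.85 no longer passed an adjusted p of 0.1. Libraries of the same number may share a source, which the labels do not state. The p-values of this fit would then not measure the spread between embryos or between sexes. For the other 7 genes the adjusted p ranged upward from 0.259 (*Angptl1*, 0.25 higher in replicate 1, SE 0.15), and *Angptl4* differed by -0.09 (SE 0.13, adjusted p = 0.712). In all, 2 of the 9 genes passed, against 26.2% of all genes tested, of which those higher in replicate 1 made up 13.6% and those higher in replicate 2 made up 12.6%.

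Macrophage markers moved with the same split. All 17 of them in the table were higher in replicate 1 in both groups, by a median of 1.99 log2 units. *Lyz2*, the lysozyme of macrophages, had 31934 and 8169 WT counts against 35761 and 13796 for *Phf2* KO, and *Cd68* had 13738 and 3203 against 10953 and 3809. In bulk RNA, fewer cells of a type and less RNA per cell cannot be told apart, and the part of these markers in the *Plin2* and *Pdk4* differences was not tested. Fibroblast markers were at 70584 and 75178 CPM in WT against 64077 and 61961 CPM in *Phf2* KO, a median log2 fold change of -0.20. Muscle markers were at 69.9 and 50.0 CPM in WT against 55.4 and 40.2 CPM in *Phf2* KO, with a median log2 fold change of -0.64 over the 4 that were tested. The most abundant of them, *Des*, which encodes desmin, had 1279 and 609 WT counts against 664 and 338 for *Phf2* KO. *Tnnt2*, the next most abundant, did not follow *Des*, with 368 and 615 WT counts against 454 and 602 for *Phf2* KO. The part of these markers in the lower *Angptl4* and *Angptl1* levels was not tested.

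**Figure D3:**
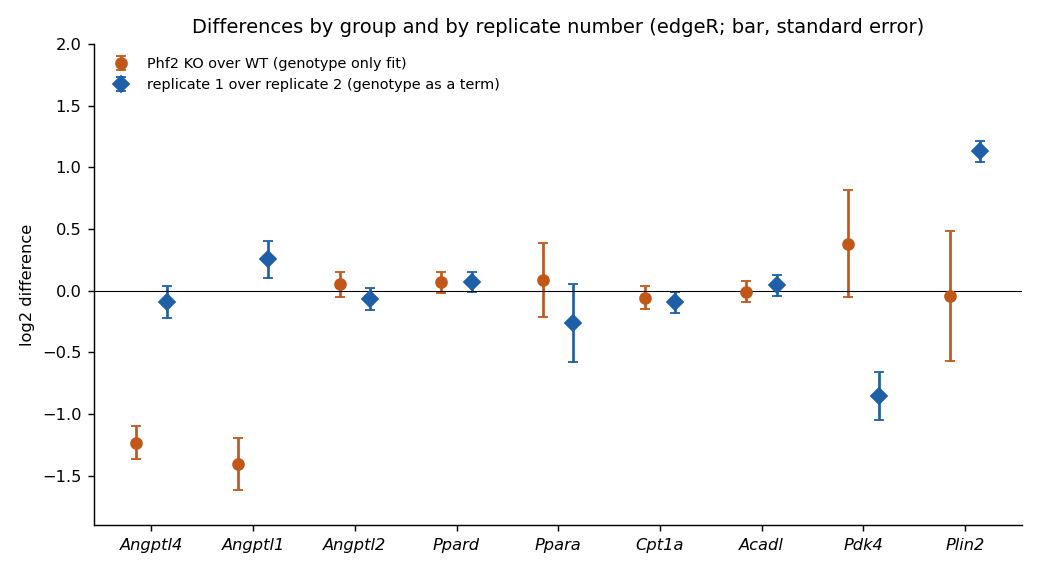
Log2 difference (y axis) of each of the 9 genes, from edgeR, with SE bars. Orange circles set *Phf2* KO against WT, and blue diamonds set replicate 1 against 2. The group fit held genotype alone and the replicate fit held genotype and number, so their bars are not comparable in size. The largest group differences, given as a description without a test, are those of *Angptl1* (-1.41) and *Angptl4* (-1.23). The largest between replicate numbers are those of *Plin2* (1.13) and *Pdk4* (-0.85).

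Levels of different genes were compared per length, as RPKM, which is the normalized CPM divided by the kilobases of annotated exon. In descending order the means over the 4 libraries were 60.7 RPKM for *Angptl2* (range 56.3 to 63.0), 55.7 for *Plin2* (34.9 to 78.4), 37.8 for *Cpt1a* (36.5 to 40.5), 26.6 for *Acadl* (25.8 to 27.2) and 16.1 for *Ppard* (15.6 to 17.2). Then came *Angptl4* with 4.08 RPKM (2.34 to 5.86), *Angptl1* with 3.21 (1.72 to 5.39), *Pdk4* with 1.27 (0.804 to 1.87) and *Ppara* with 0.321 (0.281 to 0.358). Ranges overlapped between *Angptl2* and *Plin2*, *Plin2* and *Cpt1a*, *Angptl4* and *Angptl1*, and *Angptl1* and *Pdk4*, so the order within these pairs is not fixed by the data. Both genes that were lower in *Phf2* KO were in the lower part of this order.

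Each gene was also set within its family. Among the angiopoietin-like genes measured, *Angptl2* took 73.6% and 74.3% of the summed RPKM in WT, against 84.8% and 82.9% in *Phf2* KO. *Angptl4* took 7.29% and 6.92% in WT against 3.18% and 3.43% in *Phf2* KO, and *Angptl1* 7.04% and 4.66% against 2.34% and 2.44%. The RPKM of *Angptl2* itself overlapped between the groups.

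*Ppard* made up 70.5% to 81.3% of PPAR transcripts by RPKM, *Pparg*, the PPAR that drives fat cell formation, 16.8% to 28.2%, and *Ppara* 1.26% to 1.86%. The RPKM of the *Cpt1* genes, which leave out *Cpt2*, was shared between *Cpt1a* (41.1% to 51.9%) and *Cpt1c* (48.1% to 58.8%), a form best known from brain. Among the pyruvate dehydrogenase kinases, *Pdk2* held 60.7% to 64.6%, and *Pdk4* 4.81% and 7.53% in WT against 6.0% and 10.2% in *Phf2* KO. *Plin2* took 53.6% and 34.3% of the perilipins in WT against 51.7% and 36.0% in *Phf2* KO, with most of the rest in *Plin3*, whose product is found on droplets in most cells. *Acadl* took 23.3% to 27.0% of the acyl-CoA dehydrogenases, behind *Acadvl* at 40.2% to 43.5%.

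**Figure D4:**
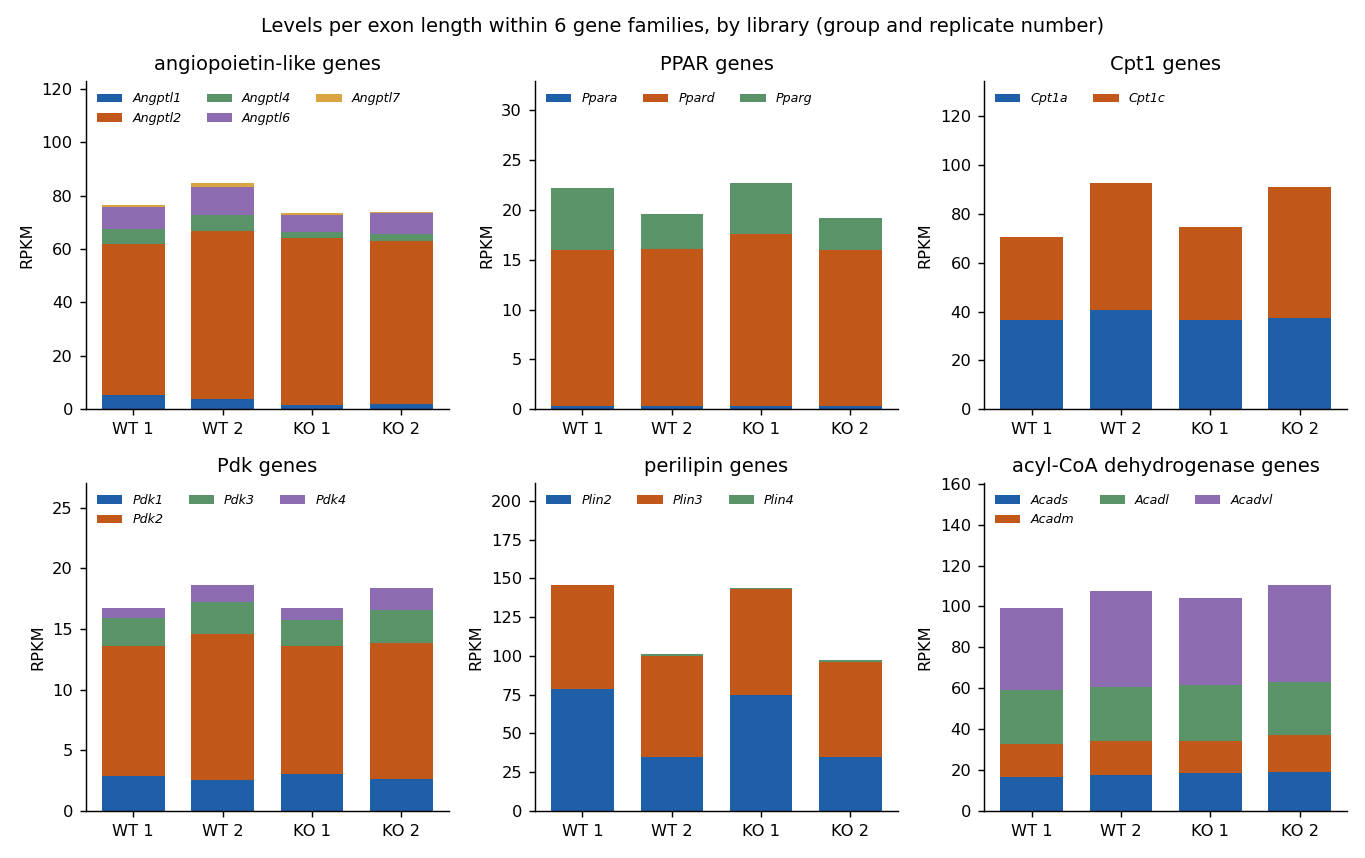
Stacked RPKM (y axis from 0) of the tested genes of 6 families in each library, WT replicates 1 and 2 and *Phf2* KO (KO) replicates 1 and 2. *Angptl4* and *Angptl1* form thinner bands in *Phf2* KO (3.18% and 3.43%, and 2.34% and 2.44%, of the family), *Ppard* and *Pdk2* lead their families in all 4 libraries, and the *Plin2* band is thicker in replicate 1 of both groups.

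Other genes of these pathways were counted in 8 lists with the 9 genes left out. Of 134 genes listed, 120 were tested, and 0 passed an adjusted p of 0.1 in edgeR's quasi-likelihood test of *Phf2* KO against WT in either direction. Over all genes tested, 0% were called higher and 0.00732% lower, the latter being *Dkk2* alone, a gene of Wnt signalling that is named because of this count and was chosen after its value was seen. At an unadjusted p below 0.05, 2 of the 120 genes were higher and 4 lower, compared with 1.54% and 2.67% of all genes. By adjusted p, DESeq2 called 0.0625% of all genes higher and 0.338% lower. At the unadjusted threshold it gave 3 higher and 3 lower of the 120, and limma-voom 2 and 3. The median log2 fold change was -0.02, and 114 of the 120 genes lay within 0.5 log2 units of 0. In this edgeR fit the lowest adjusted p among the 120 genes was 0.999. The calls changed when edgeR was fitted with the replicate number, which separates the sexes, as a block. That fit called 12 of the 120 genes higher and 8 lower, compared with 5.77% and 5.2% of all genes tested. Those higher were *Dusp1*, *Slc2a1*, *Nr1h3*, *G0s2*, *Fabp5*, *Lpl*, *Ucp2*, *Adm*, *Lpin1*, *Cebpd*, *Angpt2* and *Acaa1a*, and those lower were *Lipg*, *Angptl7*, *Angpt4*, *Fabp3*, *Angptl6*, *Vldlr*, *Acot2* and *Nrip1*. The smallest adjusted p-values in edgeR with the block were 1.23e-17 for *Dusp1*, 3.02e-14 for *Slc2a1* and 7.84e-09 for *Angpt4*. They rest on 1 residual degree of freedom and on a pairing by number that the labels do not state. At an unadjusted p below 0.05 the block fit gave 16 of the 120 genes higher and 14 lower, beside 1421 and 1252 of all 13668 genes. The values that follow are from the fit without the block, where the difference between numbers counts as error.

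The relatives of *Angptl4* and the partners of lipoprotein lipase had the lowest median of the 8 lists, -0.27 over 9 tested genes. Unadjusted p-values fell below 0.05 for 3 of them, all lower in *Phf2* KO, beside 2.67% of all genes tested. The lists were chosen with earlier results of these data known, so nothing is read from this count. *Lipg*, which encodes endothelial lipase, had 54 and 26 WT counts against 12 and 8 for *Phf2* KO (log2 fold change -1.83, SE 0.57, unadjusted p = 0.0278 in edgeR). *Angptl7*, another secreted relative, had 39 and 76 WT counts against 23 and 23 (-1.14, SE 0.39, unadjusted p = 0.0382 in edgeR). *Angpt4*, a ligand of the Tie2 receptor, had 273 and 420 counts against 144 and 174 (-0.96, SE 0.22, unadjusted p = 0.00914 in edgeR). *Lpl*, the lipase that Angptl4 inhibits, was the most abundant of the list, with 33474 and 23646 WT counts against 37479 and 28866 for *Phf2* KO. Its log2 fold change was 0.39 (SE 0.30), and within each group replicate 1 was the higher library. *Lmf2*, a relative of a lipase maturation factor, stood at 0.04 (SE 0.09). Markers of endothelial cells, where *Lipg* is best known, summed to 22.1 and 12.1 CPM in WT against 16.3 and 9.53 CPM in *Phf2* KO, with *Tie1* at 0, and their part in the *Lipg* values was not tested.

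Fatty acid uptake and lipid droplet genes had a median of 0.00 over 22 tested genes. *Fabp3*, which encodes a fatty acid carrier of the cytosol, had 217 and 227 WT counts against 128 and 127 for *Phf2* KO (-0.63, SE 0.17, unadjusted p = 0.0156 in edgeR). Fabp3 is best known from heart and muscle, and the part of the muscle markers in its values was not tested. These markers had a median log2 fold change of -0.64 over 4 tested genes, but did not all fall. *G0s2*, whose product blocks the main triglyceride lipase, stood at 492 and 691 counts against 574 and 888 (0.46, SE 0.21), and *Acsl3*, which activates fatty acids at droplets, at a log2 fold change of -0.34 (SE 0.25). *Plin3* and *Slc27a4*, a fatty acid transporter, were the most abundant and differed by -0.03 and 0.12.

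Mitochondrial fatty acid oxidation genes had a median of -0.04 over 22 tested genes, with 0 of them below an unadjusted p of 0.05 by edgeR. *Hadhb*, a subunit of the trifunctional protein, had 99 and 88 WT counts against 57 and 72 for *Phf2* KO (-0.38, SE 0.22). *Acot2*, an acyl-CoA thioesterase whose near-identical copy *Acot1* makes its counts uncertain, had 1234 and 1205 against 874 and 901 (-0.29, SE 0.11). *Ucp2*, an uncoupling protein that is abundant in macrophages, followed the replicate number, with 3436 and 869 WT counts against 3356 and 1229 for *Phf2* KO. *Hadha* (-0.08) and *Cpt1c* (0.09) were the most abundant. Peroxisomal and omega oxidation genes had a median of 0.02 over 15 tested genes, also with 0 below an unadjusted p of 0.05 by edgeR. Their largest differences among genes of at least 1 CPM were -0.35 for *Ehhadh*, 0.33 for *Acot8* and 0.26 for *Acaa1a*, and the abundant *Hsd17b4* stood at -0.02.

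For pyruvate dehydrogenase, its kinases and its phosphatases the median was -0.05 over 9 genes, between -0.17 (*Pdhx*) and 0.12 (*Pdhb*). The abundant subunits *Dlat* and *Pdha1* stood at -0.12 and -0.02. PPAR partners and coregulators had a median of -0.04 over 17 tested genes, and again 0 were below an unadjusted p of 0.05 by edgeR. *Ppargc1a*, the coactivator of mitochondrial genes, had 47 and 59 WT counts against 13 and 56 for *Phf2* KO, so that 1 library was low and the groups overlapped (-0.50, SE 0.63). *Nr1h3*, the liver X receptor alpha gene, followed the replicate number with 198 and 67 against 204 and 108 counts (0.41, SE 0.67), and *Lpin1*, a phosphatase and coactivator, had 1351 and 1833 against 1490 and 2098 (0.33, SE 0.16). The corepressor *Ncor1*, among the most abundant, stood at -0.03.

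Of the other known inputs to *Angptl4*, hypoxia-responsive genes had a median of 0.13 over 16 genes, and glucocorticoid-responsive genes 0.05 over 11 tested genes. *Slc2a1*, the glucose transporter gene, had 3909 and 5982 WT counts against 5933 and 8524 for *Phf2* KO (0.71, SE 0.21, unadjusted p = 0.024 in edgeR). *Adm*, which encodes adrenomedullin, had 4177 and 4825 WT counts against 4769 and 5589 for *Phf2* KO (0.36, SE 0.09, unadjusted p = 0.00982 in edgeR). *Adm* passed an adjusted p of 0.1 in DESeq2. *Car9*, a carbonic anhydrase of hypoxic cells, stood at 0.37 (SE 0.23), and the abundant *P4ha1* and *Ldha* at 0.13 and 0.15. In the glucocorticoid list, *Dusp1*, a kinase phosphatase, had 900 and 1915 counts against 1572 and 2648 (0.74, SE 0.38), *Cebpd* stood at 0.32 (SE 0.14) and *Sgk1* at -0.26 (SE 0.12). The metallothioneins *Mt1* and *Mt2* were the most abundant, at 0.07 and -0.11.

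**Figure D5:**
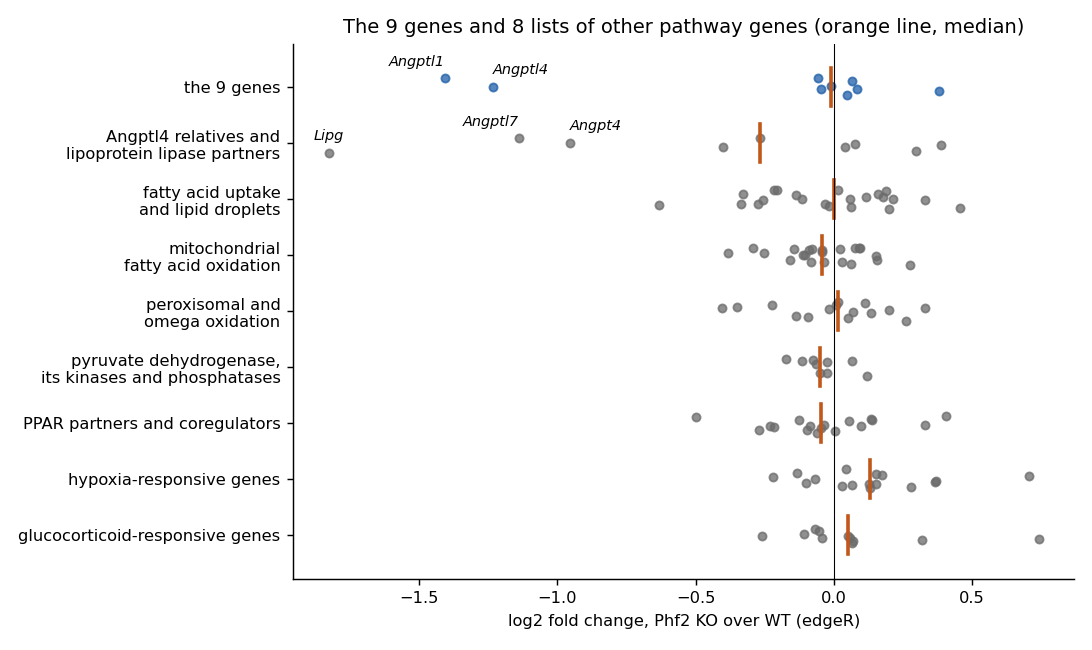
Log2 fold change of *Phf2* KO over WT (x axis, edgeR) for the 9 genes (blue) and for the tested genes of 8 pathway lists (grey), 1 row per list, with the list median as an orange line. Medians run from -0.27 to 0.13, and *Angptl1*, *Angptl4*, *Lipg*, *Angptl7* and *Angpt4*, which are named, are the genes beyond 0.9 log2 units from 0.

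The genes whose pattern over the 4 libraries was most like that of *Angptl4* were found by the distance between centred log2 CPM profiles, among 13655 genes. Among the 5 nearest were *Mcc* (0.144), LOC100505025 (0.173), *Meox1* (0.190) and *Lhfpl4* (0.193), and *Angptl1* was the 38th (0.402). *Meox1*, a homeobox gene, was the most highly counted of these 4, with 1688 and 2015 counts against 619 and 905. The genes nearest to *Pdk4* were *Igflr1* (0.070), *Islr* (0.093), *Mfap5* (0.105), Gm15612 (0.113) and *Cxcl12* (0.128). *Cxcl12*, a chemokine gene of stromal cells, had 8947 and 17143 WT counts against 10492 and 20110 for *Phf2* KO, the same order of libraries as *Pdk4*. These are likenesses over 4 libraries and carry no test.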

How the data were processed

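RNA-seq was measured in 2 WT and 2 *Phf2* KO libraries. According to the methods, the authors trimmed single reads (Trim Galore), discarded those from ribosomal RNA (Bowtie2), mapped the remainder to MGSCv37 (mm9) as reverse stranded (STAR) and counted them per gene (featureCounts). Versions and the annotation release are not given in the sources used here. The deposited values are whole-number counts per gene, not normalized. A further table of the authors holds their DESeq2 comparison and was not used.

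Differences were fitted with edgeR 4.0.16 in R 4.3.3 (filterByExpr, TMM, glmQLFit, glmQLFTest, genotype as the only term, Benjamini-Hochberg adjustment over 13668 genes, threshold 0.1). TMM factors were between 0.983 and 1.01, and 3 counts, the limit that a count of 0 allows, equal 0.116 to 0.145 CPM. Replicate numbers were tested in a fit with genotype and number. Each SE was derived from the quasi-likelihood test, as the absolute log2 difference divided by the square root of its F statistic. DESeq2 1.42.0, limma 3.58.1 (voom), RLE or library-size scaling, 2 other filters on low counts, an adjusted p of 0.05, a replicate block and leaving out each library were alternatives. Exon lengths and mm9 positions came from an NCBIM37 annotation in which 20641 of the 24391 symbols had a single entry. Figures and motif counts used Python 3.11.15, pandas 2.3.3 and Matplotlib 3.10.9. The fits were tested on simulated data.

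The members, pathway lists, marker lists and tests were chosen with earlier results of these data known. Named were the 9 genes, *Phf2* and the 5 genes nearest to *Angptl4* and to *Pdk4*. In each list, the 3 genes with the largest difference at a mean of at least 1 CPM and the 2 most abundant were named. Genes called with the replicate block, other genes of the 6 families, host genes, sex-linked genes and *Dkk2* fell outside this rule. They were named with their values known. Marker lists were macrophage, fibroblast, adipocyte, hepatocyte, muscle and endothelial. *Ahsg*, *Serpina1a*, *Fgb* and *Tie1* were at 0 in all 4 libraries. Some genes that this rule names are not reported here.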

Additional observations from a re-analysis of the deposited data

How the results depend on the processing

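*Angptl4* and *Angptl1* kept a negative difference under every alternative run, between -1.24 and -1.23 and between -1.42 and -1.38 without leaving out a library, and all 63 such values of the 9 genes (7 alternatives) stayed within 1 SD of those reported. Leaving out each library in turn, where the lone library is assumed to vary like the other group, gave -1.29 to -1.18 for *Angptl4*, -1.61 to -1.15 for *Angptl1*, -0.016 to 0.13 for *Angptl2*, -0.12 to 0.02 for *Cpt1a*, -0.14 to 0.84 for *Pdk4*, -0.69 to 0.67 for *Plin2*, -0.0060 to 0.13 for *Ppard*, -0.05 to 0.23 for *Ppara* and -0.050 to 0.028 for *Acadl*. Each of these fits left the replicate numbers unequal between the groups, so its value includes the difference between numbers. Over all genes in the main fit, 0 were called higher and 1 lower. DESeq2 called 10 and 54, limma-voom called 0 lower, an adjusted p of 0.05 called 0 lower, and leaving out a library called between 0 and 0 lower. Of the pathway genes, DESeq2 called 1 higher (*Adm*). Between replicate numbers DESeq2 called 1 of the 9 genes (*Plin2*) in place of 2 and 1364 genes in all in place of 3580. The cause was not tested. Leaving out a library could not be fitted there, as no residual degree of freedom is left. *Ppara*, *Pdk4* and *Lipg* are limited by depth.

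The labels share replicate numbers and state no pairing. With the number as a replicate block, edgeR called 789 genes higher and 711 lower (5.77% and 5.2% of all tested), and of the 120 pathway genes 12 higher and 8 lower. Differences between replicates 1 and 2 correlated between WT and *Phf2* KO across 11553 genes (r = 0.850, genes not being independent), and the common dispersion was 0.0451 without and 0.00363 with the block.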
